A study of Mus musculus with 4 samples.

Results

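Gamma-delta T cells of the mouse peritoneal cavity are described here from single-cell RNA counts. They were taken as barcodes with at least 500 detected genes, at most 10% mitochondrial UMIs (unique molecular identifiers, 1 per captured RNA molecule), at least 2 UMIs of the CD3 genes Cd3d, Cd3e and Cd3g together, at least 1 UMI of Trdc (the constant region of the T cell receptor delta chain) and no UMI of Cd4, Cd8b1, Cd79a or Csf1r. The rule left 50 cells of 26811 barcodes in all, of which 20864 met the limits on genes and mitochondrial UMIs. The set against which they are read, called other T cells, holds 466 barcodes of the same quality with at least 2 CD3 UMIs and no UMI of Trdc, Cd79a or Csf1r. Of these, 216 had Cd4 and no Cd8b1, 108 had Cd8b1 and no Cd4, 138 had neither and 4 had both.

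The study washed out peritoneal cells and sorted viable cells that stained for F4/80, a macrophage surface protein, before 10x Genomics 3′ sequencing. The 4 samples, 1 in each group, were Apoe-/- mice given a high-fat diet for 20 weeks and then 3 mg of the antibody anti-CVI-mAb, Apoe-/- mice given the same diet and PBS, Apoe-/- mice on a normal diet given PBS, and C57BL/6 wild-type mice on a normal diet given PBS. All were male and labelled 24 weeks old, and the Apoe-/- mice, on the C57BL/6 background, lack apolipoprotein E in every cell. How many mice made up a sample is not stated in the labels. The labels call the cells macrophages, whereas the cells described here lack Csf1r by rule and carry the CD3 genes.

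The matrix pools 4 libraries that are told apart only by a number at the end of each barcode, and no label ties a number to a sample. The libraries are therefore numbered 1 to 4, no library is given a genotype, diet or treatment, and no comparison between the study's groups and no p-value was made. Cells of 1 library share their source and are not replicates, so every interval below covers counting error only. Levels are UMIs summed over a set of cells and scaled to a common total (CPM), and ratios are the log2 of gamma-delta over other T cells. The 50 cells held 265698 UMIs in all, so that 1 UMI stood for 3.76 CPM, and the 466 other T cells held 2359154 UMIs.

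Gamma-delta T cells carry a receptor of a gamma and a delta chain in place of the alpha and beta chains of CD4 and CD8 T cells. In mice, some of them are made before birth, settle in tissues and are poised to release interleukin-17, whereas others follow an interferon-gamma programme marked by CD27. In mouse tissues the product of Trgv6 pairs with that of Trdv4 in a receptor of little diversity found on interleukin-17-poised cells. Cells with that receptor are known for the scavenger receptor gene Cd163l1 (also called Scart1), and interleukin-17-poised cells that use Trgv4 are known for its neighbour 5830411N06Rik (also called Scart2).

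The receptor segments of 3 genes are shown because they separate the cells described below. The lines give the last 90 bases of the coding part of each variable segment on its own strand, 5′ to 3′, read from the GRCm38 genome by the GENCODE annotation, with the codon of the conserved cysteine that opens the variable loop in capitals.
Trdv4, chr14:54075426-54075515, plus strand: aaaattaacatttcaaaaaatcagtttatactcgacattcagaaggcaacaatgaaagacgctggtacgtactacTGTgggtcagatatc
Trgv6, chr13:19190840-19190929, plus strand: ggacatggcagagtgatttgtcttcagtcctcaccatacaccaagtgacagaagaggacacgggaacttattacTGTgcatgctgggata
Trdv5, chr14:54148662-54148751, minus strand: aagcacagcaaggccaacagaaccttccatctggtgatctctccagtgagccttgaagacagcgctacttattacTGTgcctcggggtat
In each, the germline segment ends 12 or 13 bases after the cysteine codon, and joining to other segments writes the rest of the loop. The annotated Trdv5 gene lies on the minus strand and overlaps the 3′ end of Trdc, on the plus strand, by 207 bases, so counts of this pair are uncertain unless strand was used in counting.

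The cells were spread unevenly over the libraries. Library 1 held 20 of them, library 2 held 9, library 3 held 17 and library 4 held 4. As a share of the CD3 cells without Cd79a or Csf1r, they made up 18.3% in library 1 (20 of 109; 95% Clopper-Pearson interval 11.6% to 26.9%), 9% in library 2 (9 of 100; 4.20% to 16.4%), 10.5% in library 3 (17 of 162; 6.23% to 16.3%) and 2.74% in library 4 (4 of 146; 0.751% to 6.87%). The interval of library 4 lies below that of library 1, and those of libraries 2 and 3 overlap both. Over all libraries the share was 9.67% (50 of 517; 7.26% to 12.6%), and 26.6% when the other T cells were limited to those with neither Cd4 nor Cd8b1. Among all barcodes that met the quality limits they were rare, at 0.240% (0.178% to 0.316%).

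**Figure D1:**
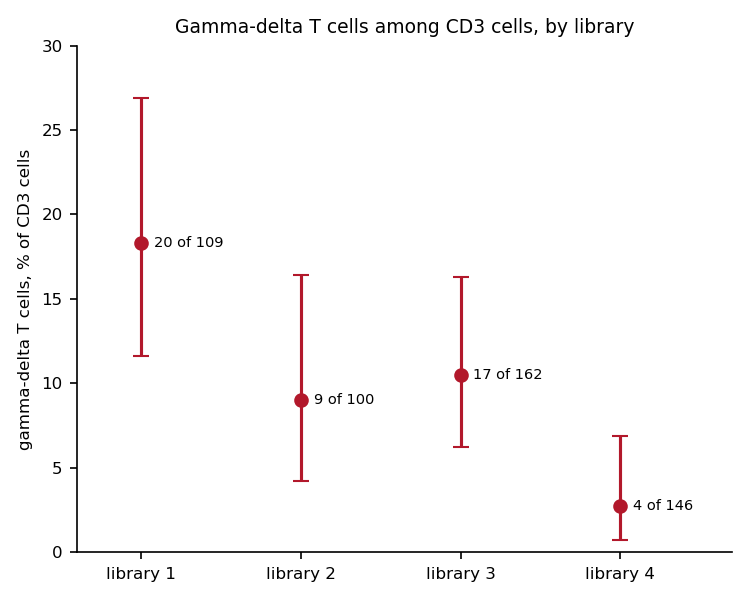
Gamma-delta T cells as a percentage of CD3 cells without Cd79a or Csf1r (y axis) in each of the 4 libraries (x axis); points are shares, bars are 95% Clopper-Pearson intervals for counting error, and the numbers give cells of CD3 cells. The share was highest in library 1, at 18.3%, and lowest in library 4, at 2.74%.

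The values that chose the cells are given as a description. Trdc had 1 to 24 UMIs per cell with a median of 8, and 2 cells had a single Trdc UMI. The CD3 genes had 4 to 52 UMIs per cell with a median of 16.5 in gamma-delta T cells, against 2 to 45 with a median of 10 in other T cells. Just outside the rule, 1 barcode met every limit but had 1 CD3 UMI, and 3 had Trdc and no CD3 UMI. A further 15 CD3 cells with Trdc were kept out for Cd79a or Csf1r, 9 of them by a single UMI, and 13 of the 15 had a Cd163l1 UMI. Of those 15, 9 came from library 1, 1 from library 2, 4 from library 3 and 1 from library 4. Without that limit in either set, the share of CD3 cells that are gamma-delta T cells was 9.31%, and 15.9% in library 1; with the limit lifted for other T cells alone, it was 11.6% in library 1. The last CD3 cell with Trdc, in library 4, was kept out by 3 Cd4 UMIs.

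Depth was similar in both sets. Gamma-delta T cells had a median of 5022 UMIs and 2098 detected genes, against 4623 UMIs and 1690 genes in other T cells. Library medians for gamma-delta T cells ran between 4404 UMIs in library 4 and 6306 in library 1. In all, 52 barcode sequences occurred in 2 libraries, and they included no gamma-delta T cell and 1 other T cell.

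A gene was called past the rule of size when it reached 50 CPM in the higher set and 20 UMIs over both, differed by at least 1 on the log2 scale, and had the same sign in libraries 1 and 3, the libraries with at least 10 gamma-delta T cells. Among 3562 genes at the floor, 508 were higher in gamma-delta T cells (14.3% of genes called) and 112 were lower (3.14% called), 17.4% in either direction. The median log2 ratio of all these genes was 0.37, and 74.0% lay above 0. With every ratio centred on that median, 296 genes were higher and 246 lower, so the balance of higher and lower genes depends on this centring. The same sign in all 4 libraries held for 338 of the higher and 97 of the lower genes. Counts for gene lists below are descriptions to be read against the 14.3% and 3.14% of all genes. A gene that reached 50 CPM in 1 set alone could be called only toward that set, so its direction was fixed by the floor.

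The gamma chain genes, which the rule did not use, were present in nearly every cell. Trgc1, a gamma constant region on chromosome 13, had 1014, 770.3, 829.7 and 979 CPM in gamma-delta T cells of libraries 1 to 4, against 35.9, 16.2, 20.7 and 6.53 CPM in other T cells. All 4 libraries were high in gamma-delta T cells, and none came near the level in other T cells. Pooled, Trgc1 stood at 918 CPM in gamma-delta T cells and 18.2 CPM in other T cells, a log2 ratio of 5.64 (5.18 to 6.16), and 46 of 50 gamma-delta T cells had a UMI, against 22 of 466 other T cells.

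Trgc4, another gamma constant region, had 275 CPM in gamma-delta T cells and 5.93 CPM in other T cells (log2 ratio 5.49, 4.70 to 6.47). Trgc2 had 309 CPM in gamma-delta T cells and 27.6 CPM in other T cells (3.48, 3.00 to 3.98); among the other T cells, CD8 T cells stood at 52.5 CPM. Within the last 500 bases of their transcripts, Trgc1 shares 45.5% of its 31-base words with Trgc2 and none with Trgc4, so the split of reads between Trgc1 and Trgc2 is uncertain. A UMI of at least 1 of these 3 genes was found in 48 of the 50 cells.

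Of the listed delta variable segments (Trdv1, Trdv2-1, Trdv2-2, Trdv3, Trdv4 and Trdv5), Trdv4 was the main one seen. Segments outside this list were not counted. It had 26, 13, 12 and 10 UMIs in gamma-delta T cells of libraries 1 to 4 and none in the other T cells of any library. Against the floor of 3 UMIs over the 466 other T cells, the level was at least 181-fold higher in gamma-delta T cells. Trdv4 and Trdc encode parts of the same delta chain, and the rule asked for Trdc, so this difference is bound to the rule. Of the 50 cells, 29 had a Trdv4 UMI: 12, 6, 8 and 3 in libraries 1 to 4. Trgv6 was found in 14 of 50 cells with 16 UMIs and in none of the other T cells, and 11 of those 14 also had Trdv4. The 16 Trgv6 UMIs lay in libraries 1 to 3, at 8, 2 and 6, with none among the 18390 UMIs of library 4.

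Trgv2, which lies near Trgc2 on the same strand, was found in 20 gamma-delta T cells and in 14 other T cells. Its level was 124 CPM in gamma-delta T cells and 8.05 CPM in other T cells, a log2 ratio of 3.93 (3.09 to 4.84). Trdv5 was found in 3 cells, Trgv4 in 4, Trgv5 in 2, and Trgv1 and Trgv7 in 1 each. Trgc3, Trgv3, Trdv1, Trdv2-1, Trdv2-2 and Trdv3 had no UMI in any of the 50. Of the 17 listed gamma and delta genes other than Trdc, 5 reached the floor and all 5 were higher in gamma-delta T cells. These 5 reached 50 CPM in gamma-delta T cells alone, so their direction was fixed by the floor. Trdv4, among the 5, is also bound to the rule. A 3′ assay seldom reads as far as the variable segment, and a cell without such a UMI is not shown to use another receptor.

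Alpha chain RNA was scarce, beta chain RNA was not. Trac, the alpha constant region, had 12 UMIs in 9 of 50 gamma-delta T cells and 971 UMIs in 364 of 466 other T cells, 45.2 CPM in gamma-delta T cells and 412 CPM in other T cells (log2 ratio -3.13, -4.15 to -2.38). All 12 lay in libraries 1 and 3, in cells with Cd163l1. In B cells Trac stood at 0.0584 CPM and in macrophages at 0.0806 CPM, sets that should lack it. Both sets were chosen with no CD3 UMI, so they may understate the free T cell RNA in the droplets.

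Trbc2, a beta constant region, had a UMI in 47 of 50 gamma-delta T cells. Its level was 655 CPM in gamma-delta T cells and 1214 CPM in other T cells (log2 ratio -0.89, -1.12 to -0.67), under the size that the rule asks for. Trbc1 had 339 CPM in gamma-delta T cells and 701 CPM in other T cells (-1.04, -1.37 to -0.74). Trbc1 shares 43.8% of its words with Trbc2, so the split between them is uncertain.

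**Figure D2:**
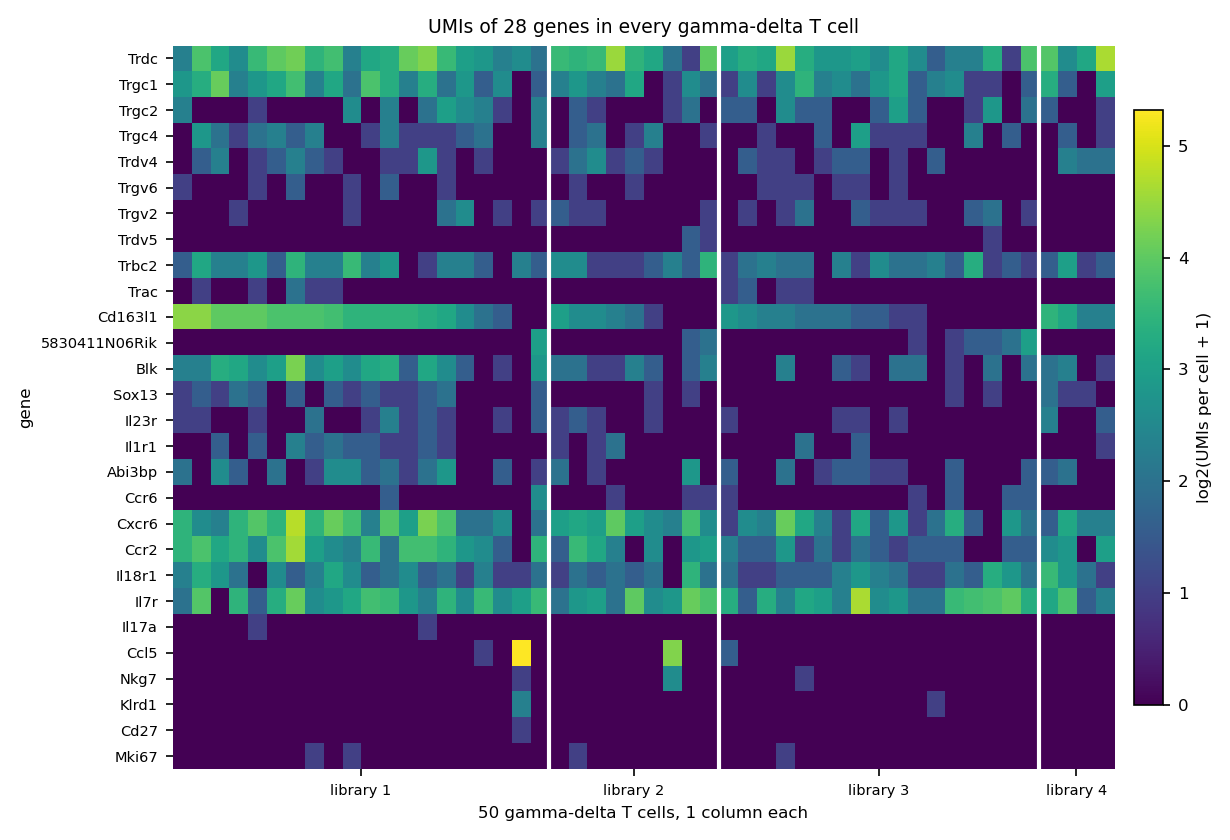
UMIs, as log2(UMIs + 1), of 28 genes (rows) in each of the 50 gamma-delta T cells (columns), grouped by library and ordered within a library by Cd163l1. Trgc1 is found in 46 cells, Cd163l1 in 39, and 5830411N06Rik in 9 cells that lie almost wholly outside the Cd163l1 cells.

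The components that couple the receptor to signalling were uneven. Of 11 listed genes, Cd247 (the zeta chain of the receptor complex) and Zap70 (the kinase it recruits) were higher and Lck (the kinase bound by CD4 and CD8), Cd2 (an adhesion receptor), Cd5 and Cd6 (scavenger-type receptors that restrain signalling) were lower, with a list median of -0.74 against 0.37 for all genes. The 4 lower genes reached 50 CPM in other T cells alone, so their direction was fixed by the floor. Lck had 2, 2, 1 and 0 UMIs in gamma-delta T cells of libraries 1 to 4, against 149, 192, 231 and 257 UMIs in other T cells. That is 18.8 CPM in gamma-delta T cells and 351 CPM in other T cells, a log2 ratio of -4.09 (-5.85 to -2.99). Cd2 stood at 33.9 CPM in gamma-delta T cells and 357 CPM in other T cells (-3.32), and Cd5 at 30.1 and 208 CPM in the same order (-2.70). Zap70 had 196 CPM in gamma-delta T cells and 95.4 CPM in other T cells (1.05, 0.57 to 1.48), and with ratios centred on the median of all genes neither Zap70 nor Cd247 passed.

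Of the 25 genes of the interleukin-17 list, 21 reached the floor and were higher in gamma-delta T cells, with a median log2 ratio of 3.89. Of the 21, 4 (Rora, Maf, Tmem176a and Tmem176b) reached 50 CPM in both sets, and the other 17 reached it in gamma-delta T cells alone, so that their direction was fixed by the floor and the count is a description. These are genes of the receptors, regulators and surface proteins of interleukin-17-poised lymphocytes, some of them chosen with earlier results of these data known. The 4 under the floor were Il17a, Il17f, Il22 and Areg. The count was 21 of 21 with ratios centred on the median of all genes, and 12 of 12 at the floor when every cell was thinned to 2000 UMIs. The share of all genes called higher after thinning is not given here.

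Cd163l1 led the list. It had 1595, 566, 448 and 1414 CPM in gamma-delta T cells of libraries 1 to 4, against 0, 4.05, 1.6 and 3.92 CPM in other T cells. The lowest of the 4 gamma-delta values was far above the highest of the other T cells. Pooled, the log2 ratio was 8.62 (7.60 to 10.19), from 288 UMIs in 39 of 50 cells against 6 UMIs in 6 of 466. Thinned to 2000 UMIs, 69.4% of gamma-delta T cells had a UMI (34 of 49; 54.6% to 81.7%), against 0.219% of other T cells (1 of 456), 0 of 1912 B cells and 0 of 15104 macrophages. The 0 of 15104 allows up to 0.0199% of macrophages with a UMI at that depth (3 cells of the total), and does not limit how many express the gene.

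Among the transcription factors, Sox13, a regulator of this lineage, had 34 UMIs in 21 gamma-delta T cells and 1 UMI in other T cells (7.67, 5.66 to 13.58). Of the 34, 25 lay in library 1, which held 127240 of the 265698 UMIs. Maf, which restrains and shapes the programme, had 926 CPM in gamma-delta T cells and 197 CPM in other T cells (2.23). Zbtb16, which encodes PLZF, had 75.3 CPM in gamma-delta T cells and 2.54 CPM in other T cells (4.81), and Rora 440.3 and 149.6 CPM in the same order (1.56).

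Receptors for the cytokines that drive interleukin-17 release were found in a part of the cells. Il23r had 18, 5, 4 and 6 UMIs in gamma-delta T cells of libraries 1 to 4, and other T cells held 1 UMI in library 4 and none elsewhere. Its pooled log2 ratio was 7.63 (5.62 to 13.54), and 21 of 50 cells had a UMI. Il1r1, the interleukin-1 receptor, had 33 UMIs in 17 gamma-delta T cells and 6 UMIs in 6 other T cells (5.52, 4.34 to 7.16). Il17re, a receptor subunit for interleukin-17 family cytokines, had 143 CPM in gamma-delta T cells and 10.2 CPM in other T cells (3.80). Ccr6, a chemokine receptor, had 67.7 CPM in gamma-delta T cells and 8.9 CPM in other T cells (2.93, 1.93 to 3.91), from 10 gamma-delta T cells.

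The B lymphoid kinase Blk was found in 37 of 50 gamma-delta T cells and in 5 of 466 other T cells, at 606 CPM in gamma-delta T cells and 2.54 CPM in other T cells (7.79, 6.74 to 9.36). B cells also expressed it, at 198 CPM, which is below the gamma-delta level. The paired membrane proteins Tmem176a and Tmem176b were found in 48 and 49 of the 50 cells, with log2 ratios of 3.43 and 3.06. Macrophages express both, at 352 CPM for Tmem176a and 467 CPM for Tmem176b, against 2017 and 1705 CPM in gamma-delta T cells. Ramp1, a subunit of the receptor for calcitonin gene-related peptide, was found in 47 of 50 cells (602 CPM in gamma-delta T cells, 38.1 CPM in other T cells, 3.98).

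Few UMIs of the cytokines themselves were captured. Il17a had 2 UMIs, in 2 cells of library 1, Il17f and Il22 had none, and Areg (amphiregulin, a growth factor) had 2 in a single cell. For Il17f, 0 of 49 cells allows up to 6.12% of cells with a UMI at 2000 UMIs per cell (Clopper-Pearson upper bound 7.25%), and does not limit how many express the gene. Csf2, which encodes GM-CSF, had 11 UMIs in 8 gamma-delta T cells and 1 UMI in other T cells, under the floor at 41.4 CPM in gamma-delta T cells and 0.424 CPM in other T cells. Tnf reached it, at 64 CPM in gamma-delta T cells and 11 CPM in other T cells (2.55, 1.56 to 3.47).

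The genes of the interferon-gamma and cytotoxic list were lower. Of 22, 10 reached the floor, 7 were lower and none was higher, with a median log2 ratio of -3.99, or -2.75 with genes at 0 UMIs set at their bound. Of the 7, Ccl5 alone reached 50 CPM in both sets, and the direction of the other 6 was fixed by the floor. Nkg7, a granule protein of cytotoxic lymphocytes, had 7.86, 113, 13.2 and 0 CPM in gamma-delta T cells of libraries 1 to 4, against 729, 896, 787 and 894 CPM in other T cells. No library overlapped, and the pooled log2 ratio was -4.88 (-6.30 to -3.94). Ccl5, a chemokine, had 229.6 CPM in gamma-delta T cells and 5793 CPM in other T cells (-4.65), with 61 UMIs in 4 of 50 cells against 13666 UMIs in 259 of 466.

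Cd27, the receptor that marks the interferon-gamma branch, had 1 UMI in gamma-delta T cells and 376 in other T cells (-4.82, -10.71 to -2.92). Eomes, a T-box factor, had no UMI in gamma-delta T cells and 155 in other T cells, at least 5.82-fold lower in gamma-delta T cells. Gzmk, a granzyme, had none and 208 in the same order, at least 7.81-fold lower. The rule kept Cd8b1 out of gamma-delta T cells alone, and Eomes stood at 156 CPM in CD8 T cells and 34.2 CPM in T cells without Cd4 or Cd8b1. Against those T cells without Cd4 or Cd8b1, 9 genes of the list reached the floor and 5 were lower, and Eomes was under the floor. In that comparison 3587 genes in all reached the floor, with a median log2 ratio of 0.35. The share of them called is not given here, so the 5 of 9 is a description. Against all other T cells, the 3 remaining genes of the list at the floor missed the rule of size. Il2rb, the receptor for interleukin-2 and interleukin-15, stood at 267 CPM in gamma-delta T cells and 286 CPM in other T cells (-0.09, -0.47 to 0.26). Klrk1, which encodes NKG2D, had a ratio of -0.25 (-0.86 to 0.27), and Cxcr3 of -0.40 (-0.95 to 0.07). Ifng itself was under the floor in both sets, with 1 UMI in gamma-delta T cells and 18 in other T cells.

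**Figure D3:**
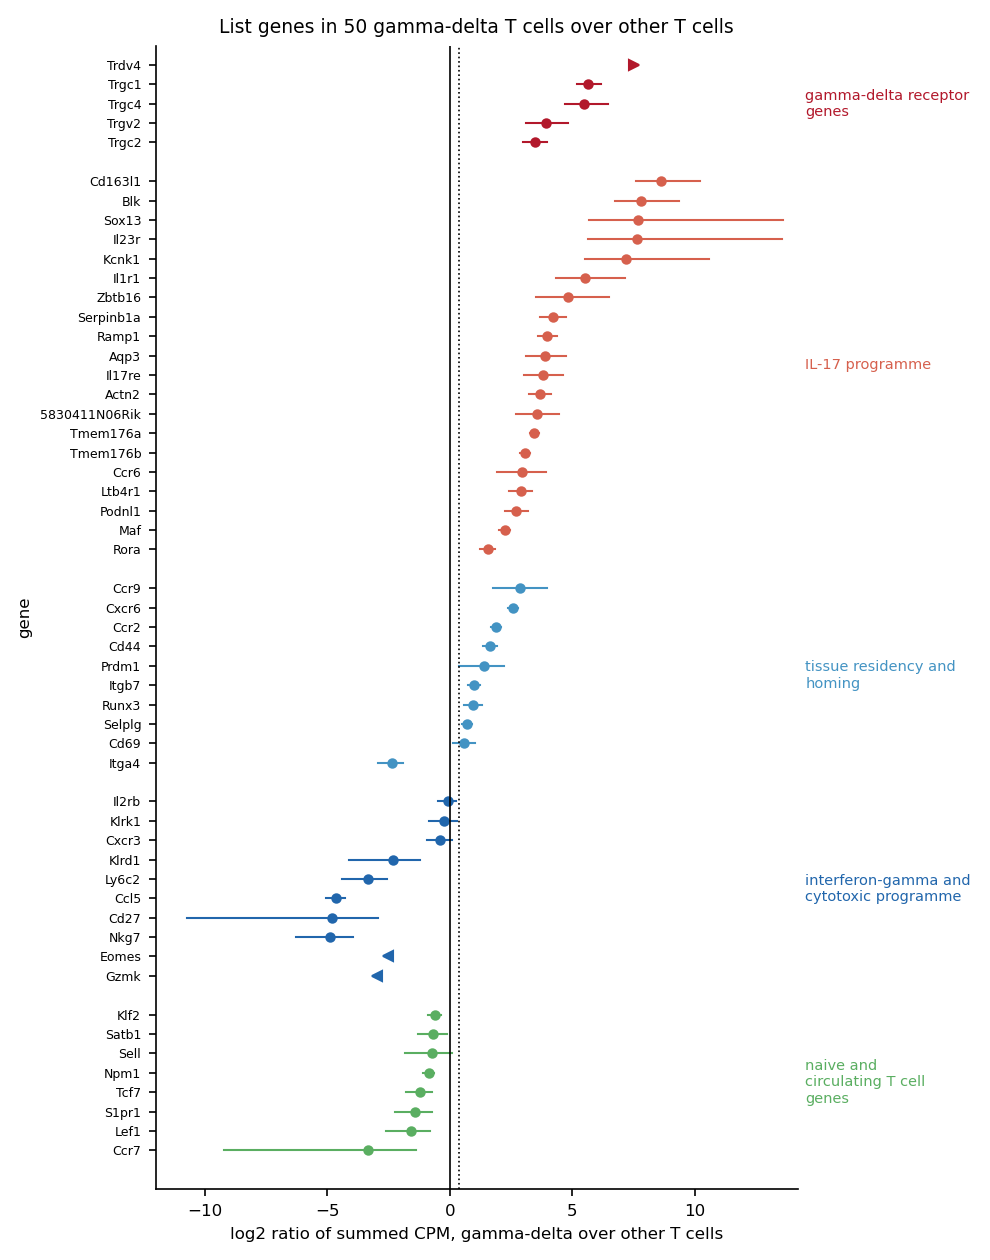
Log2 ratio of summed CPM, gamma-delta over other T cells (x axis), for genes of 5 lists that reached the floor (y axis). Points and bars are ratios with 95% counting intervals, arrowheads are bounds for genes at 0 UMIs in 1 set (3 UMIs taken for the 0), and the dotted line is the median of all genes at 0.37. The 20 interleukin-17 genes drawn lie above 0 and all 10 interferon-gamma and cytotoxic genes lie below it, 3 of them (Il2rb, Klrk1 and Cxcr3) with intervals that include 0. Genes that reached 50 CPM in 1 set alone could lie only on the side of that set.

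Genes of both programmes were also read cell by cell. Cells thinned to 2000 UMIs were sorted by any UMI of 8 interleukin-17 genes, among them Cd163l1, Il17a, Il17f, Il23r, Ccr6, Sox13 and Blk, and by any UMI of Tbx21, Eomes, Ifng, Nkg7, Ccl5, Klrd1, Klrk1 or Cd27. Of 49 gamma-delta T cells, 34 had genes of the interleukin-17 side only (69.4%; 54.6% to 81.7%), 9 had both, 4 had the interferon-gamma side only and 2 had none. Of 456 other T cells, 9 had the interleukin-17 side only (1.97%; 0.906% to 3.71%), 9 had both, 323 had the interferon-gamma side only (70.8%) and 115 had none. Of 107 CD8 T cells, 106 had the interferon-gamma side only and none had the interleukin-17 side only. Without thinning, 28 of the 50 gamma-delta T cells had the interleukin-17 side only and 18 had both. Klrk1 was found in 17 of the 50 cells unthinned. The interleukin-17 side includes Cd163l1 and Blk, and its genes were chosen with earlier results of these data known. The contrast with other T cells partly restates that choice and is a description.

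**Figure D4:**
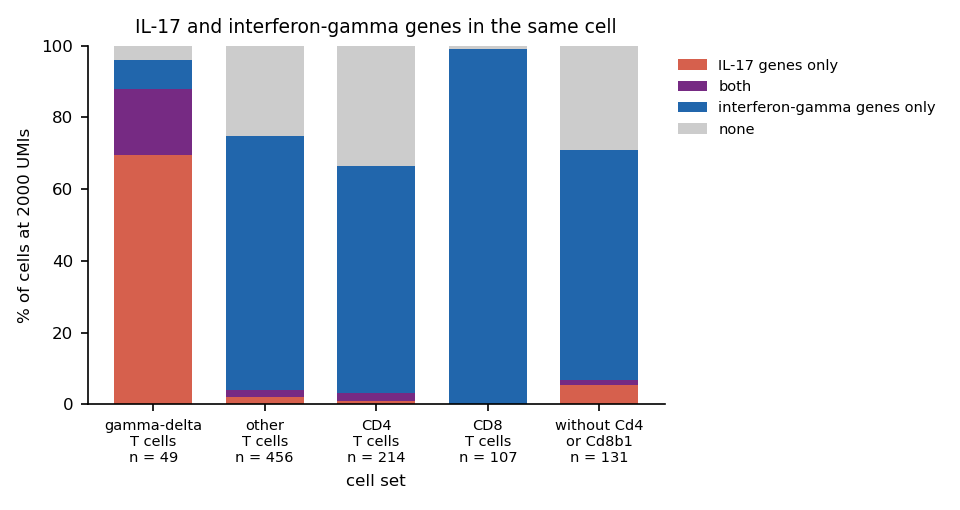
Percentage of cells (y axis) with UMIs of interleukin-17 genes only, of both gene sets, of interferon-gamma genes only or of none, in each cell set (x axis), after thinning every cell to 2000 UMIs. Interleukin-17 genes only make up 69.4% of gamma-delta T cells and 1.97% of other T cells. The genes were chosen with earlier results of these data known.

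The cells differed among themselves in which scavenger receptor gene they carried, a split described after its values were seen. Cd163l1 and 5830411N06Rik lie on the plus strand of chromosome 7, 16138 bases apart in GRCm38 (140218267 to 140231145 and 140247284 to 140300736), and their transcript ends share no 31-base word. Of the 50 cells, 38 had Cd163l1 only, 8 had 5830411N06Rik only, 1 had both and 3 had neither. The 38 lay in libraries 1 to 4 as 18, 6, 10 and 4, and the 8 as 1, 2, 5 and 0.

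The receptor segments shown above followed the same split. Trdv4 was found in 28 of the 38 Cd163l1 cells and in none of the 8 cells with 5830411N06Rik only, and Trgv6 in 14 of the 38 and none of the 8. Trdv5 was found in none of the 38 and in 3 of the 8, and since Trdv5 overlaps Trdc, those 3 cells with 4 UMIs remain uncertain. Trgv4 was found in 2 of the 38 and 1 of the 8. Median depth was 5385 UMIs in the Cd163l1 cells and 4659.5 UMIs in the 5830411N06Rik cells.

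Cytokine and chemokine receptors differed along it as well. Il1r1 was found in 17 of the 38 Cd163l1 cells and none of the 8, whereas Ccr6 was found in 3 of the 38 and 6 of the 8. Trac was found in 9 of the 38 and none of the 8. Blk, in 30 of the 38 and 6 of the 8, and Il18r1, in 37 and all 8 in the same order, were found on both sides. Il7r had a level of 1331 CPM in the Cd163l1 cells and 2425 CPM in the 5830411N06Rik cells. Of the 17 Il1r1 cells, 11 lay in library 1, which held 18 of the 38 Cd163l1 cells and 1 of the 8. With 8 cells from 3 libraries and no thinning, these counts describe the cells in hand, and the part of library and depth was not tested.

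In other T cells, 5830411N06Rik had 21 UMIs in 6 cells, 16 of them in library 2, so its log2 ratio of 3.56 (2.70 to 4.45) ran between 2.21 and 5.17 over the alternatives tried. In library 2 alone, the gene had 113 CPM in gamma-delta T cells and 32.4 CPM in other T cells. In library 4 no gamma-delta T cell had it, and other T cells held 5 UMIs.

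The stretches upstream of both genes are shown because these neighbours were read in nearly separate cells. They are the 250 bases before a RefSeq transcript start, the first of 3 listed for 5830411N06Rik and the single one for Cd163l1, from GRCm38.p6, plus strand, with any match to a searched motif in capitals.
Cd163l1, chr7:140218017-140218266: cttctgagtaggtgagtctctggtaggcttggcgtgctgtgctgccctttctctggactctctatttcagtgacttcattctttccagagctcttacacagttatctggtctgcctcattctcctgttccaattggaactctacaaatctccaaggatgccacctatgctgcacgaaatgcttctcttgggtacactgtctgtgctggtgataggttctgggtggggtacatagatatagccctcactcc
5830411N06Rik, chr7:140247051-140247300: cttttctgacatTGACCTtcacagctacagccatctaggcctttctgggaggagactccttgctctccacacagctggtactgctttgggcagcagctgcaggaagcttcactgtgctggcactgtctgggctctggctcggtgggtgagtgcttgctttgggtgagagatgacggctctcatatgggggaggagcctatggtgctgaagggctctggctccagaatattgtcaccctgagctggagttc
The motifs searched on both strands were AGGTCA (a core of nuclear receptor sites), TGTGGT (the core of RUNX sites) and ACAAAG (a core of SOX and TCF sites). The 5830411N06Rik stretch holds 1 match, TGACCT, the reverse complement of AGGTCA, and the Cd163l1 stretch holds none. Of 32851 promoters of the same length, 14.0% hold AGGTCA, 14.0% TGTGGT and 16.5% ACAAAG, so a match describes the letters and shows no binding.

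The 3 cells with neither scavenger receptor gene included 2 that stood apart. One cell of library 1 had 39 Ccl5 UMIs and one of library 2 had 19, together 58 of the 61 Ccl5 UMIs in all gamma-delta T cells. The 3 cells had no UMI of Blk, Il23r or Sox13, and between them 6 of the 7 Nkg7 UMIs and the single Cd27 UMI. All 3 had Trdc, at 10 UMIs in all, and none had a Trac UMI. The cell of library 1 had no UMI of Trgc1, Trgc2, Trgc4 or any listed variable segment, and had 2 Trbc1 and 4 Trbc2 UMIs. The cell of library 2 had 1 UMI each of Trgc1, Trgc2, Trgv4 and Trgv1, and the cell of library 3 had 4 of Trgc1 and 2 of Trdv4.

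Homing and residency genes were mixed. Of 10 at the floor, Cxcr6, Ccr2, Ccr9 and Cd44 were higher and Itga4 was lower, with a median of 1.18. Cxcr6, a chemokine receptor of tissue-resident lymphocytes, had 1469.7, 1586, 1040.4 and 979 CPM in gamma-delta T cells of libraries 1 to 4, against 192, 292, 150 and 257 CPM in other T cells. Each gamma-delta library was above every library of other T cells, and the pooled log2 ratio was 2.58 (2.38 to 2.78). At 2000 UMIs, 81.6% of gamma-delta T cells had a UMI (68.0% to 91.2%), against 29.2% of other T cells, 0.105% of B cells and 0.0397% of macrophages.

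Ccr2, a receptor for monocyte chemokines, had 997 CPM in gamma-delta T cells and 268 CPM in other T cells (1.90, 1.68 to 2.10). Cd44, an adhesion receptor of antigen-experienced T cells, had 501 CPM in gamma-delta T cells and 160.2 CPM in other T cells (1.65), but in library 4 it had 54.4 CPM in gamma-delta T cells and 128 CPM in other T cells. Itga4, an integrin chain, had 132 CPM in gamma-delta T cells and 691 CPM in other T cells (-2.37, -2.92 to -1.91). Ccr9 rests on 14 UMIs in 4 cells. It reached 50 CPM in gamma-delta T cells alone, so its direction was fixed by the floor.

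Genes of naive and recirculating T cells were lower or short of the rule. Of 8 at the floor, 4 were lower, none was higher, and the median was -1.04. Of the 4, Tcf7 and S1pr1 reached 50 CPM in both sets, and the direction of Ccr7 and Lef1 was fixed by the floor. With ratios centred on the median of all genes, 7 of the 8 were lower, beside 246 of all 3562 genes. When cells were thinned to 2000 UMIs, 7 of 10 at the floor were lower, beside 184 of all 3840 genes. The count was also 7 of 10 with other T cells weighted to the same mix of libraries. For that setting the share of all genes called is not given here, so the count is a description. Tcf7, a transcription factor of naive T cells, had 118, 136, 145 and 109 CPM in gamma-delta T cells of libraries 1 to 4, against 439.6, 227, 300 and 273 CPM in other T cells, with no overlap. S1pr1, the receptor for exit from tissue, had 64 CPM in gamma-delta T cells and 174 CPM in other T cells (-1.41). Lef1 had a ratio of -1.59, and Ccr7, which guides cells into lymph nodes, had 1 UMI in gamma-delta T cells and 133 in other T cells (-3.33, -9.22 to -1.40).

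Of 10 cytokine receptors at the floor, 3 were higher and none was lower. Of the 3, Il18r1 alone reached 50 CPM in both sets, and the direction of Il2ra and Il12rb1 was fixed by the floor. Il18r1, the receptor for interleukin-18, had 558, 612, 698 and 1142 CPM in gamma-delta T cells of libraries 1 to 4, against 219.8, 359, 217 and 333 CPM in other T cells. The sets did not overlap, but the pooled ratio of 1.19 (0.93 to 1.43) is close to the rule's limit and falls to 0.82 when centred on the median of all genes. Il2ra (the high-affinity interleukin-2 receptor chain) had 358 CPM in gamma-delta T cells and 49.2 CPM in other T cells (2.86), and Il12rb1, which pairs with Il23r, had 113 CPM in gamma-delta T cells and 12.3 CPM in other T cells (3.20). Il7r, the interleukin-7 receptor, had a UMI in 49 of 50 cells at 1505 CPM in gamma-delta T cells and 1208 CPM in other T cells (0.32, 0.16 to 0.47), near the median of all genes.

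**Figure D5:**
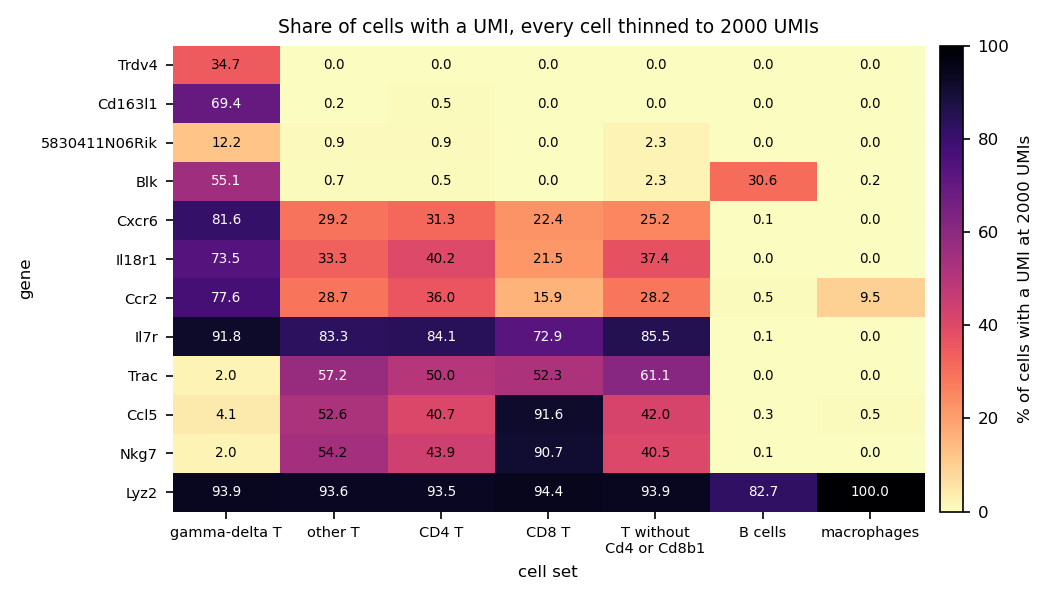
Percentage of cells with a UMI of each of 12 genes (rows) in each cell set (columns), every cell thinned to 2000 UMIs. Cd163l1 reaches 69.4% in gamma-delta T cells and 0.219% in other T cells, and Ccl5 is found in 4.08% of gamma-delta T cells and 52.6% of other T cells; Lyz2, a macrophage gene, is found in 82.7% of B cells and in more of every other set.

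Activation and checkpoint genes split by kind. Of 15 at the floor, 8 were higher and 3 were lower; 6 of the 8 encode calcium-binding, actin-capping or galectin proteins (S100a4, S100a6, S100a10, S100a11, Capg and Lgals1) and the other two were Pdcd1 and Tnfrsf25. S100a4 had 3725, 3195, 3213 and 4078 CPM in gamma-delta T cells of libraries 1 to 4, against 579, 1775, 686 and 1571 CPM in other T cells (pooled log2 ratio 1.58). Pdcd1, which encodes PD-1, had 143 CPM in gamma-delta T cells and 32.6 CPM in other T cells (2.14, 1.53 to 2.71). Pdcd1 and Tnfrsf25 reached 50 CPM in gamma-delta T cells alone, so their direction was fixed by the floor. With ratios centred on the median of all genes, 4 of the 15 were higher.

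The lower 3 are co-stimulatory receptors. They reached 50 CPM in other T cells alone, so their direction was fixed by the floor. Cd28 had 0, 0, 1 and 0 UMIs in gamma-delta T cells of libraries 1 to 4, against 196, 127, 175 and 187 UMIs in other T cells (-5.69, -11.58 to -3.79). Tnfrsf4, which encodes OX40, had 0 UMIs in gamma-delta T cells and 209 in other T cells, at least 7.85-fold lower in gamma-delta T cells. Tnfrsf18, which encodes GITR, had 41.4 CPM in gamma-delta T cells and 224 CPM in other T cells (-2.37).

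The remaining lists held few genes at the floor. Of 7 genes of lipid and cholesterol handling, Plin2, a lipid droplet coat protein, and Cd36, a fatty acid receptor, were higher. Plin2 had 151 CPM in gamma-delta T cells and 28.4 CPM in other T cells (2.41), and Cd36 had 56.5 CPM in gamma-delta T cells and 22 CPM in other T cells (1.39, 0.42 to 2.21). Macrophages express both, at 470.2 CPM for Plin2 and 457 CPM for Cd36. Tgfb1, Tnf and Furin were higher among 3 growth factor and repair genes at the floor, with a ratio of 1.03 for Tgfb1. Centred on the median of all genes, 1 of the 3 was higher, and against T cells without Cd4 or Cd8b1, 2 of the 3 were. For that last comparison the share of all genes called is not given here. No proliferation gene of 5 was past the rule, and Mki67 was found in 4 of 50 gamma-delta T cells and 12 of 466 other T cells. Of 7 innate-like genes only Zbtb16, described above, was higher, and of 7 stress genes Jun and Dusp1 were higher. Among the genes called higher in these lists, Tgfb1 alone reached 50 CPM in both sets, and the direction of the others was fixed by the floor.

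The 25 genes with the highest ratios held others besides the receptor and interleukin-17 genes described above. All 25 reached 50 CPM in gamma-delta T cells alone, so their direction was fixed by the floor. Abi3bp, an extracellular matrix protein, had 42, 10, 16 and 5 UMIs in gamma-delta T cells of libraries 1 to 4, against 0, 1, 0 and 0 UMIs in other T cells (8.77, 6.82 to 14.66), and was found in 28 of 50 cells. Cpe, a prohormone-processing enzyme, had 33 UMIs in gamma-delta T cells and 1 in other T cells (7.63), and Tns4, a tensin, 32 and 1 in the same order (7.59). Kcnk1, a potassium channel gene already counted in the interleukin-17 list, had 40 and 2 in the same order (7.17). Plxnd1, a semaphorin receptor, had 252 CPM in gamma-delta T cells and 3.81 CPM in other T cells (5.98).

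Cryba4, Slc6a13, Auts2, Pde5a, Ablim3, Rbpms2, Ppp1r14c, Adam12, Lingo4, Rhobtb1 and Coro2b were also among the 25, each with 18 to 42 UMIs in gamma-delta T cells and 1 to 5 in other T cells. Their ratios ran between 5.42 for Coro2b and 7.06 for Cryba4. Bcl2a1a, a survival gene, had a ratio of 5.65 but belongs to a family of near-identical copies, so its reads cannot be assigned with certainty.

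The 15 genes with the lowest ratios included Cd28, Tnfrsf4, Gzmk, Eomes, Nkg7 and Cd27, described above. All 15 reached 50 CPM in other T cells alone, so their direction was fixed by the floor. Themis, which tunes signalling by the alpha-beta receptor, had 0 UMIs in gamma-delta T cells of all 4 libraries, against 94, 70, 76 and 123 UMIs in other T cells, at least 13.6-fold lower in gamma-delta T cells. Tbc1d4, a regulator of glucose transporter traffic, was at least 9.31-fold lower, Ubash3a, a phosphatase that dampens receptor signalling, at least 8.56-fold, Trat1, an adaptor of the receptor complex, at least 5.89-fold, and Sh2d3c at least 4.54-fold, all with 0 UMIs in gamma-delta T cells. Cd8a, whose partner Cd8b1 the rule excluded, was at least 6.95-fold lower and is bound to the rule. Slfn1 (-4.78) and Gramd3 (-4.67) were also among them, with 2 and 1 UMIs in gamma-delta T cells.

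H2-Eb1, an MHC class II gene of antigen-presenting cells, had 1 UMI in gamma-delta T cells and 419 in 56 of 466 other T cells (-4.98). B cells had it at 2476 CPM, and the 10 B cell markers summed to 429 CPM in gamma-delta T cells and 829 CPM in other T cells. The part of B cell RNA in this difference was not tested.

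Markers of other cells were low in the gamma-delta T cells, with macrophage RNA the most frequent. The 12 macrophage markers summed to 2098, 1948, 2199 and 3915 CPM in gamma-delta T cells of libraries 1 to 4, against 2302, 1720.4, 2151 and 3019 CPM in other T cells and 76634 CPM in macrophages pooled. Apoe, the gene that the Apoe-/- mice lack, is 1 of the 12. It had 15.7, 68, 26.3 and 1088 CPM in gamma-delta T cells of libraries 1 to 4, against 0, 34.4, 22.3 and 1093 CPM in other T cells. Macrophages pooled had Apoe at 10241 CPM. The library 4 sums therefore hold Apoe at a level that those of the other libraries lack, so the sums cannot be compared between libraries. Fcgr1 had no UMI, and Lyz2, found in all 50 cells, stood at 1362 CPM in gamma-delta T cells and 1374 CPM in other T cells, against 48634 CPM in macrophages. Adgre1, which encodes the F4/80 protein used in the sort, had 10 UMIs in 9 of the 50 cells, at 37.6 CPM in gamma-delta T cells and 30.9 CPM in other T cells, against 789 CPM in macrophages and 37.1 CPM in B cells. How cells with so little Adgre1 passed the sort was not tested.

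Of the 10 B cell markers, 3 (Ebf1, Pax5 and Cd22) were at 0 in gamma-delta T cells. Cd79b was the 1 higher gene, at 67.7 CPM in gamma-delta T cells and 7.63 CPM in other T cells (3.15, 2.12 to 4.18), against 2103 CPM in B cells, and was found in 13 of 50 cells with no Cd79a by rule. Its direction was fixed by the floor, which it reached in gamma-delta T cells alone. All 7 dendritic cell and all 7 mesothelial and stromal markers were at 0 in gamma-delta T cells. Of 8 natural killer cell markers, 5 were at 0 (Ncr1, Eomes, Gzma, Klra8 and Klra4), summing to 26.3 CPM over the list in gamma-delta T cells and 223 CPM in other T cells. Of 7 ILC2 markers, 5 were at 0 (Il1rl1, Il13, Il5, Klrg1 and Kit). Mast cell markers summed to 30.1 CPM in gamma-delta T cells and 109 CPM in other T cells, and neutrophil markers to 7.53 CPM in gamma-delta T cells and 5.51 CPM in other T cells.

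The cell type name was checked against its markers. Trgc1, Cd163l1, Cxcr6 and Il18r1, the marker genes for peritoneal gamma-delta T cells other than Trdc itself, were all past the rule of size and summed to 3982 CPM in gamma-delta T cells, against 529 CPM in other T cells, 0.759 CPM in B cells and 0.393 CPM in macrophages. The markers were chosen with the data known and serve as a check of the name only.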

How the data were processed

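Cells were profiled with the 10x Genomics 3′ assay, and the authors deposited 1 matrix of UMI counts, 31253 genes by 26811 barcodes. Per the file headers it was written by Cell Ranger 5.0.1. CASAVA 1.8, Seurat and the mm10 build are named, with no role, per the submitters' processing notes. No barcode number is tied to a sample, so 1 sample stood in each group, no group comparison was made and no test was run. Rows naming Cd3d, Cd3e, Cd3g, Trdc, Cd4, Cd8b1, Cd79a and Csf1r chose the cells and were left out of results.

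Counts were summed over cells and scaled to CPM. Log2 ratios had 0.5 added to each count, with 95% intervals from the exact conditional Poisson ratio, and shares had Clopper-Pearson intervals. A gene at 0 was set at 3 UMIs for a bound. Shares were read after thinning each cell to 2000 UMIs, leaving out 1 gamma-delta T cell and 10 other T cells. B cells (at least 2 Cd79a UMIs, no CD3 or Csf1r) and macrophages (at least 2 Csf1r UMIs, no CD3 or Cd79a) gave the free-RNA background. For T cell genes that background may be too low, because barcodes with a CD3 UMI were left out of both sets. No doublet caller was run: the rule keeps out cells with Cd79a or Csf1r, and leaving out barcodes over 10000 UMIs was an alternative. The depth of the 50 cells sets the precision, and intervals and limits cover counting error only.

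The text names the 25 genes with the highest and the 15 with the lowest ratio past the rule of size, and list genes. The members and lists were chosen with earlier results of these data known. Scripts were tested on simulated data and ran in Python 3.11.15 with numpy 2.4.6, scipy 1.17.1, pandas 2.3.3 and matplotlib 3.10.9. Sequences came from GRCm38 with GENCODE genes and from RefSeq promoters. A gene of the interleukin-17 list enters its counts and is not reported here.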

Additional observations from a re-analysis of the deposited data

How the results depend on the processing

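Each of the 60 genes followed kept the sign of its ratio under the 21 alternatives, except Il7r, which ran between -0.05 and 0.87 and was not past the rule. Among the genes past the rule of size as reported, the number of alternatives past it was lowest for Adam12 and Rhobtb1, in 12 of the 21, followed by Zap70 in 13, Slc6a13 in 14, Ppp1r14c, Lingo4 and Sh2d3c in 15, and Eomes, Ablim3 and Ccr6 in 16. Trbc1, Lgals1, Pde5a and Bcl2a1a were past it in 17, and Il18r1 in 19.

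The counts of genes depended on the floor and on centring. With a floor of 20 CPM, 904 genes were higher and 278 lower, and with 100 CPM, 256 and 60. Centred on the median, 296 were higher and 246 lower. With at most 5% mitochondrial UMIs 823 were higher, and with the same sign asked of all 4 libraries, chosen after seeing the data, 338 were higher. With no Cd79a or Csf1r limit on other T cells 208 were lower. Thinned to 2000 UMIs, 184 genes were lower and 12 interleukin-17 genes reached the floor and were higher, while 3840 genes in all were at the floor, against 3562 as reported; the cause was not tested. Among T cells without Cd4 and Cd8b1, the share of gamma-delta T cells was 26.6%.

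Shares of cells with a UMI were higher with more UMIs kept: Cxcr6 at 91.5% and Il18r1 at 85.1% at 3000 UMIs, and 96% for both and 58% for Trdv4 with no thinning. Unthinned, 18 cells had both programmes and 0 had none. Cells with none were 5 at 1500 UMIs, 0 at 3000 and 1 in a second random draw. Leaving out each library in turn, cells with interleukin-17 genes only ran between 17 (without library 1) and 30, with both between 3 (without library 3) and 9, with interferon-gamma genes only between 2 (without library 3) and 4, and with none between 1 and 2.

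No paired analysis was possible because every group has 1 sample and no barcode number is tied to it. At 50 cells, 1 UMI is 54.4 CPM in library 4, so low genes could not be read there.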
